A study of Saccharomyces cerevisiae with 6 samples.

Results

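The mevalonate pathway turns acetyl-CoA into squalene, the first committed precursor of ergosterol, the main sterol of yeast membranes. The 10 genes taken as its members were ERG10, ERG13, HMG1, HMG2, ERG12, ERG8, MVD1, IDI1, ERG20 and ERG9, matched by systematic name (YPL028W, YML126C, YML075C, YLR450W, YMR208W, YMR220W, YNR043W, YPL117C, YJL167W and YHR190W, in that order) and summed over the transcript isoforms of each gene. Of these 10, 8 were listed in the deposited tables among 2850 genes in all, while ERG13 and IDI1 were not analysed here. Polyadenylated RNA was measured in 3 ESI+ and 3 naive cultures of BY4743, an a/alpha diploid laboratory strain of Saccharomyces cerevisiae. The labels call the 3 of each group biological replicates. All cultures grew in YPD, a rich medium with glucose, and were taken in mid-logarithmic phase near an OD600 of 0.5. Cells labelled [ESI+] carry a protein-based element that is inherited through the cytoplasm and is known for weakened silencing at subtelomeres, and naive cells do not carry it. The labels do not say how the element was introduced. The strain named for both groups is known for deletions in URA3, LEU2 and HIS3. Some libraries go against this in URA3, as given with the markers. The comparison asked how transcripts differ between the states.

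In the pathway, HMG-CoA reductase makes mevalonate and is the best known point of control. Yeast carries 2 genes for it, HMG1 and HMG2, which give separate proteins, and the Hmg2 protein is known for its regulated breakdown at the endoplasmic reticulum. The kinases Erg12 and Erg8 and the decarboxylase Mvd1 turn mevalonate into isopentenyl diphosphate. Erg20 then joins isoprene units into farnesyl diphosphate and Erg9 joins farnesyl units into squalene. Many sterol genes are regulated by the zinc cluster factors Upc2 and Ecm22, which bind a sterol regulatory element.

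Total estimated counts were 1937568, 3896490 and 316485 in ESI+ replicates 1 to 3 and 4361435, 1080941 and 5934050 in naive replicates 1 to 3. ESI+ replicate 2 stood apart from the other libraries in 3 measures. The TPM (abundance scaled for transcript length and library) of the gene at the 90th percentile was 5.07 times that at the 10th in ESI+ replicate 2, against 28.0 to 50.5 times in the other 5 libraries. An estimated length-proportional background, the 5th percentile of counts per kb over all listed genes, was 298.8 counts per kb there and 2.027 to 55.39 in the other 5. Its median gene held its abundance in its longest listed isoform, as described with the isoforms. Of 15 strain and mating-type markers 6 were listed. URA3, which BY4743 lacks, had 17.77, 26.34 and 333.0 CPM (counts scaled to library size with TMM factors) in ESI+ replicates 1 to 3 and 32.32, 20.37 and 254.8 in naive replicates 1 to 3, so ESI+ replicate 3 and naive replicate 3 go against the strain label. HIS3 had 34.99, 66.45 and 453.2 CPM in ESI+ replicates 1 to 3 and 32.88, 32.59 and 50.56 in naive replicates 1 to 3, and the background came to 0.851% of its counts in ESI+ replicate 3. AGA2, an a-specific gene that a/alpha diploids repress, had 1.949, 76.75 and 303.6 TPM in the ESI+ libraries and 11.1, 13.9 and 3.622 in the naive libraries, with background at 2.63% of its counts in ESI+ replicate 3 and at or above its counts in the other 5. ESI+ replicate 3 thus also stood apart in HIS3 and in AGA2. Summed counts do not show whether the HIS3 reads came from a whole gene. For the a/alpha mating type the listed markers disagree, and AGA2 goes against the label in ESI+ replicate 3. STE4, also among the markers, had 42.57 CPM in ESI+ replicate 3, within the 18.96 to 97.82 CPM of the other libraries. Background came to 17.5% of the STE4 counts in ESI+ replicate 3 and to 38.1% to 93.4% in the other 5. The other a-specific genes listed were few in counts in ESI+ replicate 3, with 6 for MFA1 and 0 for MFA2. MFA1 had 3.769, 11.38 and 15.02 CPM in ESI+ replicates 1 to 3 and 1.417, 0.0 and 0.8717 in naive replicates 1 to 3. Background came to 9.51% of the MFA1 counts in ESI+ replicate 3, so these few counts lay in the same direction as AGA2. Across all 2844 genes tested, the median log2 fold change (ESI+ minus naive) was 0.788, 0.336, -0.204 and -0.673 in 4 equal groups of genes from the lowest to the highest mean CPM. ERG8 fell in the second of these, HMG1, HMG2, ERG12 and MVD1 in the third, and ERG10, ERG20 and ERG9 in the most abundant. The share of this abundance trend in the members' values was not tested.

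Of the listed members HMG1 alone passed the test. It was called higher in ESI+ cells, 3.43-fold (log2 fold change 1.78, SE 0.472, n = 3 each, edgeR adjusted p = 0.029). HMG2 and ERG8 had their 3 ESI+ values above their 3 naive values in CPM without passing the test. ERG10 and ERG20, the most abundant members in naive cells, had their 3 ESI+ values below their 3 naive values, also without passing. Of the 8 members 1 was called higher and 0 lower by edgeR's quasi-likelihood test, against 5.27% of all tested genes called higher and 0.985% called lower. At an unadjusted p under 0.05 there were 3 higher and 0 lower, against 15.2% and 10.2% of all tested genes. DESeq2 called 1 member higher and 0 lower, against 8.47% and 5.1% of all genes, and limma on log2(TPM + 1) called 0 in either direction, against 4.84% and 1.12%. The median log2 fold change of the members was -0.043, with 4 positive and 4 negative, beside 0.0724 over all tested genes. In these bulk cultures a smaller share of cells with a transcript and less RNA per cell cannot be told apart.

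**Figure D1:**
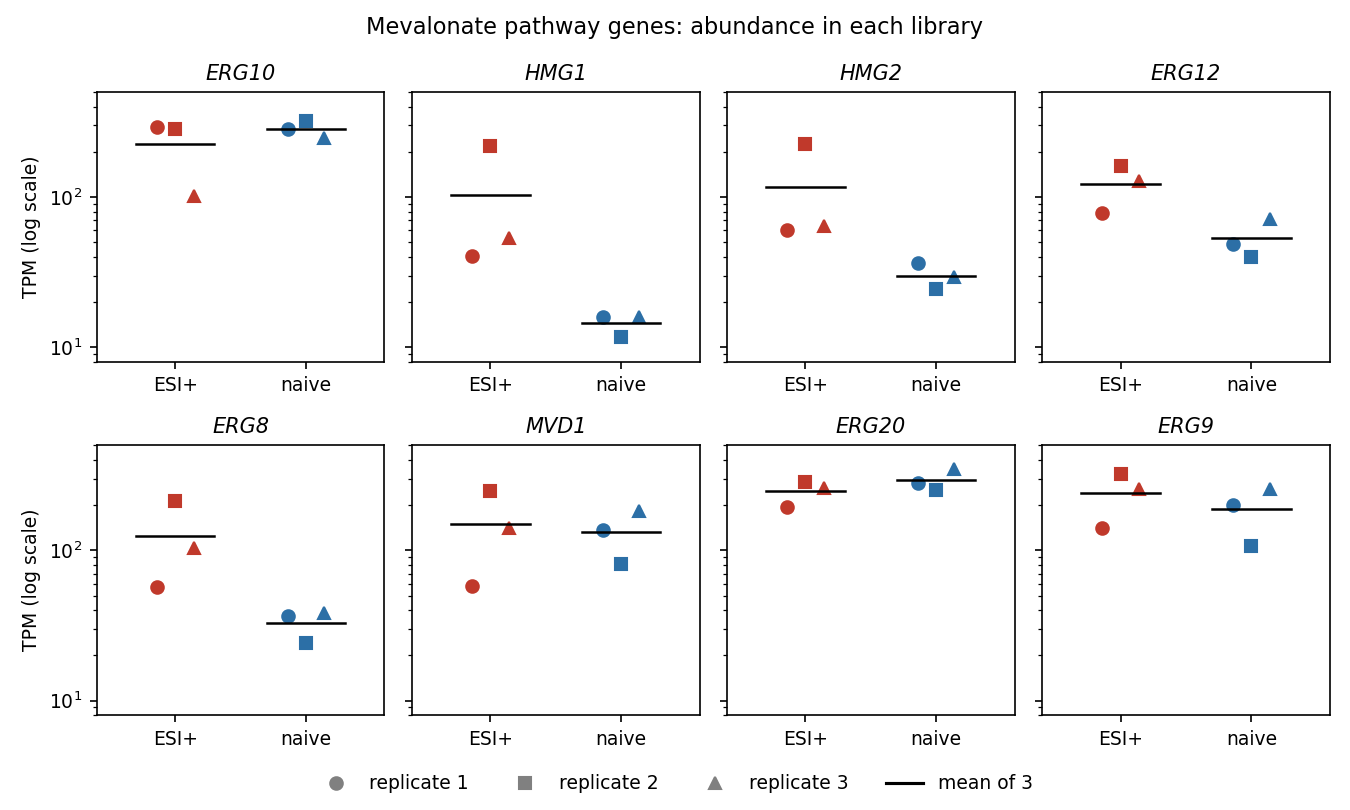
TPM on a log scale in each library for the 8 listed members, in pathway order. Circles, squares and triangles are replicates 1 to 3 of ESI+ (red) and naive (blue), and the bar is the mean of 3. The 3 ESI+ values of HMG1 lie between 40.54 and 217.4 TPM, above the naive values of 11.71 to 15.86 TPM, while ERG20 lies between 194.8 and 345.4 TPM in all 6 libraries.

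Short stretches upstream of the members show which of them hold letters of the sterol regulatory element. Windows of 500 bases before each start codon in the R64 reference were searched on both strands for TCGTATA, the core of the element, and for TCGTTTA, which differs from it by 1 letter. The search was made after the expression values were seen. Each window below has 30 bases, read 5′ to 3′ on the strand of the gene, and the capitals mark the match, which reads TATACGA or TAAACGA where it lies on the opposite strand. ERG25 and ERG3 hold further matches that are not shown. The windows of ERG1, ERG25 and ERG3 are shown because these 3 later genes of the pathway were called lower in ESI+ cells.
ERG10, chrXVI:497847-497876, plus strand: acgaggtgcctgTCGTTTAccgcccaagcc
HMG1, chrXIII:119267-119296, minus strand: ctctacgcccgcTCGTTTAaaactctatag
ERG8, chrXIII:712152-712181, plus strand: gatgcgtttttcTATACGAgatctaaaagg
MVD1, chrXIV:701783-701812, plus strand: cgccgaaatggcTCGTTTAgccttttctcg
ERG20, chrX:104811-104840, plus strand: tctcgtcggttcTAAACGAaacgccttgtt
ERG9, chrVIII:484694-484723, plus strand: gggtttagtgccTAAACGAgcagcgagaac
ERG1, chrVII:848788-848817, minus strand: cgtagcgggcctTCGTATAgctcggccgag
ERG25, chrVII:610069-610098, plus strand: cactgcctccctTCGTATAcgggacacaga
ERG3, chrXII:253563-253592, plus strand: aaaaattcaggcTCGTATAagtggcacaat

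TCGTATA was found before 1 of the 8 listed members, ERG8, and before 6 of the 13 listed late sterol genes, against 7.0% of 6002 windows of protein-coding genes. TCGTTTA was found before 5 of the 8 members and 9 of the 13 late genes, against 8.8% of all windows. One or other was found before 6 of the 8 members, HMG2 and ERG12 being those without, and before 12 of the 13 late genes, against 14.8% of all windows. Members with a match include HMG1 and ERG8, with positive log2 fold changes, and ERG10, MVD1, ERG20 and ERG9, with negative ones. The matches describe letters, and binding was not measured. The motif of HMG1 lies 386 bases before the start codon and that of ERG8 152 bases before it.

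ERG10 encodes acetoacetyl-CoA thiolase, which makes the first bond of the pathway. Its coding span is on chromosome XVI, 498096 to 499292. It had 427.5, 195.6 and 122.7 CPM in ESI+ replicates 1 to 3 and 465.8, 642.2 and 434.1 in naive replicates 1 to 3. The 3 ESI+ values were below the 3 naive values, but ESI+ replicate 1 lay just under the lowest naive library. In CPM the log2 difference was -1.04 (SE 0.546, edgeR adjusted p = 0.232), and it did not pass. With ESI+ replicate 1 alone against naive it was -0.28, a value with no replicate in the ESI+ arm. On the TPM scale the groups overlapped, with 293.7, 283.4 and 101.7 TPM in ESI+ and 284.6, 320.0 and 245.6 TPM in naive libraries. The difference on the log2(TPM + 1) scale was -0.465, where the median of all genes was 0.64.

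HMG1 lies on the left arm of chromosome XIII, 115734 to 118898. It had 164.2, 408.8 and 182.8 CPM in ESI+ replicates 1 to 3 and 72.29, 67.89 and 81.07 in naive replicates 1 to 3. The groups did not overlap, and ESI+ replicate 2 was the highest library. The means were 251.9 ± 136.1 in ESI+ and 73.75 ± 6.711 CPM in naive libraries (SD, n = 3 each). These came from 305, 3088 and 73 estimated counts in ESI+ and 255, 50 and 372 in naive libraries.

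HMG2, on chromosome XII from 1032627 to 1035764, had 242.8, 421.9 and 217.8 CPM in ESI+ and 164.1, 141.2 and 150.4 in naive libraries. The groups again did not overlap and ESI+ replicate 2 was again the highest. Its log2 fold change of 0.96 (SE 0.453, edgeR adjusted p = 0.185) did not pass. In CPM 3 members, HMG1, HMG2 and ERG8, had all ESI+ values above all naive values, against 15.2% of tested genes, and 2 members, ERG10 and ERG20, had all below, against 14.6%. In TPM 4 members, HMG1, HMG2, ERG12 and ERG8, lay above and 0 below, against 29.6% and 3.68% of listed genes.

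The call of HMG1 rested on several libraries. Without ESI+ replicate 2 the log2 fold change was 1.23 (edgeR adjusted p = 0.141) and edgeR called 1 gene in all, and with ESI+ replicate 1 alone against naive it was 1.13, a fit in which the naive libraries alone give the spread and which called 0 of 2848 genes. Without ESI+ replicate 3 it was 1.95 (edgeR adjusted p = 0.00105). Without naive replicates 1, 2 and 3 it was 1.81, 1.77 and 1.91 (edgeR adjusted p = 0.0811, 0.107 and 0.0929), and with both high-URA3 libraries, ESI+ replicate 3 and naive replicate 3, left out it was 2.03 (edgeR adjusted p = 0.0215). In naive replicates 1 to 3 the length-proportional background came to 56.1%, 49.3% and 50.5% of the HMG1 counts, and in ESI+ replicates 1 to 3 to 36.5%, 32.8% and 9.41%. With that background subtracted the log2 fold change was 3.01 and did not pass (edgeR adjusted p = 0.116).

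HMG1 and HMG2 can be set against each other within a library, where the scaling drops out but the length-proportional background does not. The 2 coding sequences share no run of 31 bases with each other or with another place in the reference. The longest runs they share have 23 bases and are shown to make plain how little identical sequence a fragment could match in both genes. The first lies at coding positions 2194 to 2216 of HMG1 and 2182 to 2204 of HMG2, and the second at 2596 to 2618 and 2584 to 2606.
Shared run 1, HMG1 at chrXIII:116683-116705: ggtggtgcaacaactgttttaac
Shared run 2, HMG1 at chrXIII:116281-116303: gaagctactattcctggtgatgt

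The TPM ratio of HMG1 to HMG2 was 0.673, 0.964 and 0.837 in ESI+ replicates 1 to 3 and 0.438, 0.479 and 0.537 in naive replicates 1 to 3. HMG1 stayed below HMG2 in all 6 libraries, and the 3 ESI+ ratios lay above the 3 naive ratios. The mean log2 ratio was -0.293 ± 0.261 in ESI+ and -1.04 ± 0.146 in naive libraries (SD, n = 3 each). The difference of 0.751 gave p = 0.1 in a two-sided exact permutation test, the smallest p that 3 libraries against 3 allow. The summed TPM of both genes was 100.8, 442.9 and 117.5 in ESI+ and 52.04, 36.13 and 45.3 in naive libraries. The length-proportional background came to 24.6%, 31.7% and 7.87% of the HMG2 counts in ESI+ replicates 1 to 3. In naive replicates 1 to 3 it came to 24.6%, 23.6% and 27.1%, with the shares for HMG1 given above. The part of the background in the ratio was not tested.

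**Figure D2:**
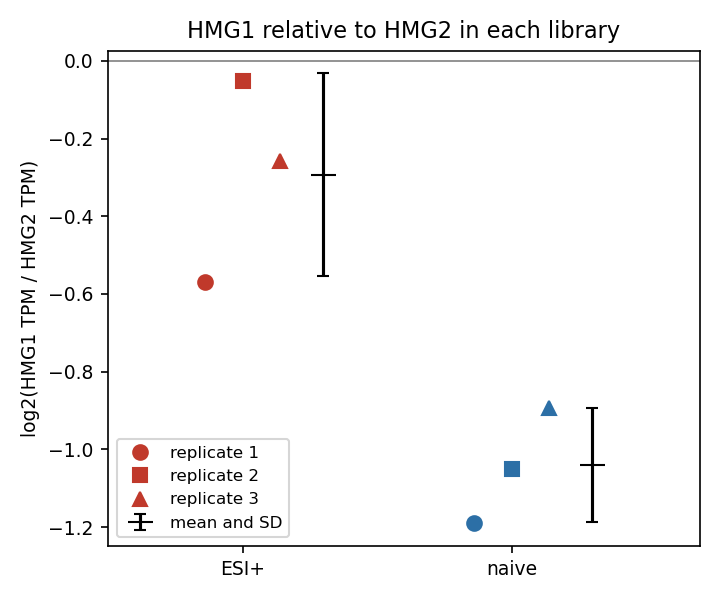
Log2 of the HMG1 to HMG2 TPM ratio per library, with ESI+ left of naive. Symbols are replicates and the bar is the mean with its SD (n = 3 each). The ESI+ libraries lie from -0.57 to -0.0529 and the naive libraries from -1.19 to -0.894.

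The mevalonate kinase gene ERG12 lies on the right arm of chromosome XIII, 684467 to 685798. It had 128.1, 120.9 and 167.8 CPM in ESI+ and 88.16, 90.97 and 139.9 in naive libraries, so naive replicate 3 overlapped the ESI+ range. The difference was 0.37 on the log2 scale (SE 0.446, edgeR adjusted p = 0.63). The coding end of the next gene, YMR209C on the opposite strand, is 112 bases away. No source used here states whether strand was kept, so reads from the facing 3′ ends cannot be told apart.

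ERG8 encodes phosphomevalonate kinase, the next enzyme, and lies on the same arm, 712316 to 713671. It had 93.14, 159.5 and 137.7 CPM in ESI+ and 65.49, 52.95 and 73.44 in naive libraries, with no overlap. The log2 fold change of 1.02 (SE 0.465, edgeR unadjusted p = 0.0383, adjusted p = 0.167) did not pass. ERG8 and HMG2 had the most alike profiles of any pair of members: the root mean square distance between their centred log2 CPM over 6 libraries was 0.274. HMG2 ranked 63rd by this distance among 2794 genes compared with ERG8.

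MVD1, also known as ERG19, encodes mevalonate diphosphate decarboxylase and lies on chromosome XIV, 701895 to 703085. It had 86.68, 171.3 and 170.3 CPM in ESI+ and 224.0, 164.3 and 322.5 in naive libraries. ESI+ replicate 1 was the lowest of the 6, and naive replicate 2 lay below the other 2 ESI+ libraries. On the log2 scale the difference in CPM was -0.74 (SE 0.458, edgeR adjusted p = 0.311). On the log2(TPM + 1) scale it was 0.016, where the median of all genes was 0.64.

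ERG20, the farnesyl diphosphate synthase gene on chromosome X, 105014 to 106072, had 257.9, 170.2 and 280.4 CPM in ESI+ and 418.4, 463.0 and 551.3 in naive libraries. The groups did not overlap in CPM. Its log2 fold change of -1.02 (SE 0.499, edgeR unadjusted p = 0.0516, adjusted p = 0.201) did not pass. In TPM the groups overlapped, with a mean of 246.2 ± 46.63 in ESI+ and 293.6 ± 46.94 in naive libraries (SD, n = 3 each). On the log2(TPM + 1) scale the difference was -0.259, where the median of all genes was 0.64.

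ERG9, the squalene synthase gene, lies on chromosome VIII, 484845 to 486179. It had 230.4, 238.1 and 348.1 CPM in ESI+ and 363.1, 240.3 and 511.5 in naive libraries, and the groups overlapped. The log2 difference in CPM was -0.46 (SE 0.493, edgeR adjusted p = 0.583). On the log2(TPM + 1) scale it was 0.37, again where the median of all genes was 0.64. The gene CTF8, on the opposite strand, ends 50 bases from the coding end of ERG9, so their reads cannot be told apart if strand was lost.

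Levels can be compared between genes per length. By mean TPM the ESI+ order was ERG20, ERG9, ERG10, MVD1, ERG8, ERG12, HMG2 and HMG1, with means of 246.2 to 103.8 TPM, and each neighbouring pair overlapped in range. The naive order was ERG20, ERG10, ERG9, MVD1, ERG12, ERG8, HMG2 and HMG1, with means of 293.6 to 14.46 TPM. In the naive libraries MVD1 lay wholly above ERG12, ERG12 wholly above ERG8, and HMG2 wholly above HMG1, while the other neighbours overlapped in range. The highest member had 7.24, 1.99 and 4.82 times the TPM of the lowest in ESI+ replicates 1 to 3, against 17.9, 27.3 and 21.8 times in naive replicates 1 to 3. For all genes, the 90th percentile of TPM was 28.0, 5.07 and 34.3 times the 10th in ESI+ and 40.3, 50.5 and 40.4 times in naive libraries. Members stood closer together in each ESI+ library than in any naive library, and the range over all genes was also narrower in the ESI+ libraries, by far most in replicate 2. The part of each library's background in this was not tested.

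The members on chromosome XIII were read beside their chromosome. The 250 other genes tested there had a median log2 fold change of 0.49, with 72.4% positive, while the 2586 genes of other chromosomes had 0.00846 when pooled, with 50.5% positive. Chromosome XIII was not alone in this: the median was 0.538 on chromosome VI, 0.462 on I and 0.401 on IX. In ESI+ replicate 2 the medians of chromosomes I, IX and VI, at 0.936, 0.741 and 0.61 relative to the naive mean, were above that of XIII. In ESI+ replicate 1 they were 0.0636, 0.0405 and 0.172, below XIII. In ESI+ replicate 3 they were 0.446, 0.189 and 0.0578, with chromosome I again above XIII and the others below it. Relative to the naive mean, the median of the chromosome XIII genes was 0.465, 0.562 and 0.326 in ESI+ replicates 1 to 3 and -0.0322, -0.0206 and 0.0321 in naive replicates 1 to 3. HMG1 stood at 1.15, 2.47 and 1.31 in ESI+ replicates 1 to 3, above the left arm medians of 0.545, 0.87 and 0.469. ERG8 stood at 0.551, 1.32 and 1.11, above the right arm medians of 0.449, 0.46 and 0.218. ERG12, at 0.301, 0.217 and 0.688, lay under the right arm median in ESI+ replicates 1 and 2. The log2 fold change less the chromosome's median was 1.29 for HMG1, 0.527 for ERG8 and -0.118 for ERG12. Less the median of the gene's own arm it was 1.03 for HMG1, 0.67 for ERG8 and 0.0252 for ERG12, so the sign of ERG12 turned. HMG1 ranked 33rd of 253 genes on the chromosome by fold change. Of the 253, 32 were called higher and 0 lower, against 5.27% and 0.985% of all tested genes. The part of the chromosome-wide shift in these values was not tested.

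**Figure D3:**
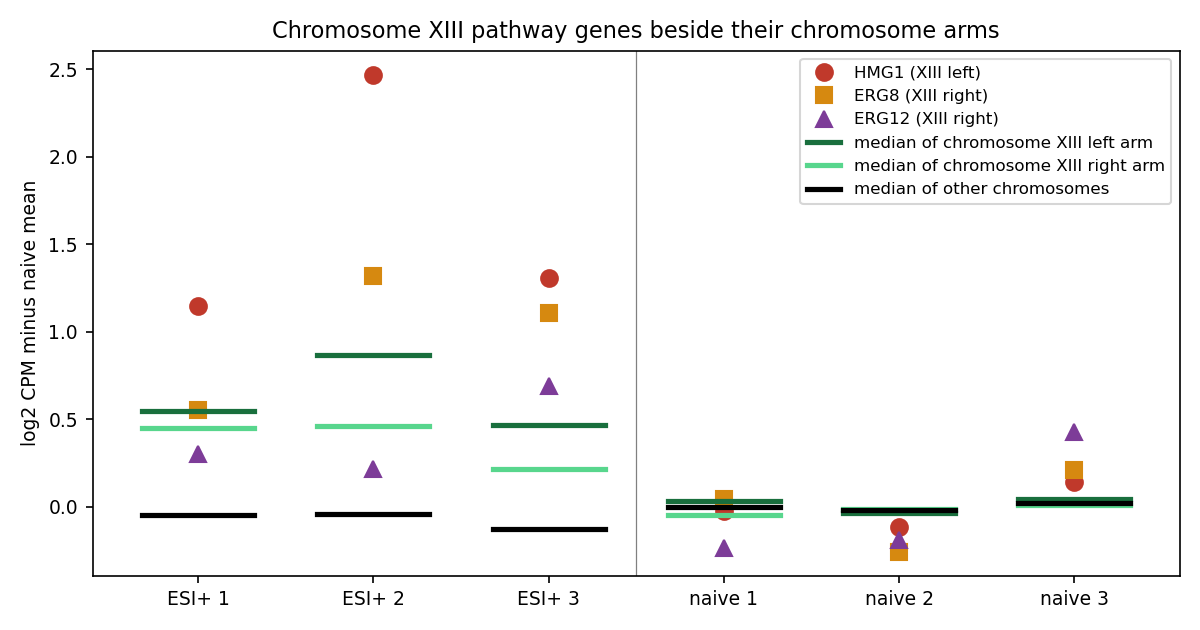
Log2 CPM of HMG1, ERG8 and ERG12 in each library minus the gene's naive mean, with bars for the median of the other genes on each arm of chromosome XIII and of all other chromosomes. In the 3 ESI+ libraries both arms lie above the pooled median of the other chromosomes, though not above each single chromosome, and HMG1 lies above its arm, at 1.15 to 2.47.

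The isoform that held a member's abundance varied among the ESI+ libraries. The 8 members had 36 listed isoforms, and 7 members had isoforms of more than 1 length. A position of 0% means that a gene's abundance lay in its shortest listed isoform and the full range means that it lay in its longest. Over 2120 genes the median position was 71.7% in ESI+ replicate 1, at the longest isoform in ESI+ replicate 2 and 1.49% in ESI+ replicate 3, and 39.9%, 21.3% and 34.8% in naive replicates 1 to 3. Each member with several lengths had its lowest or joint lowest position in ESI+ replicate 3, apart from HMG1, and its highest or joint highest in ESI+ replicate 2. MVD1, with 11 isoforms of 1332 to 1394 bases, was at 69.2% in ESI+ replicate 1, at its longest isoform in replicate 2 and at 0.0441% in replicate 3, and at 40.9%, 33.9% and 35.1% in naive libraries. ERG8 gave all of its TPM to the isoform of 1494 bases in ESI+ replicate 2 and to that of 1446 bases in ESI+ replicate 3. ERG10 was at 14.3% in ESI+ replicate 1, beside 15.6%, 7.15% and 14.5% in naive libraries. No isoform difference between ESI+ and naive cells can be read from the members, because the ESI+ libraries lay at both ends of the range.

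**Figure D4:**
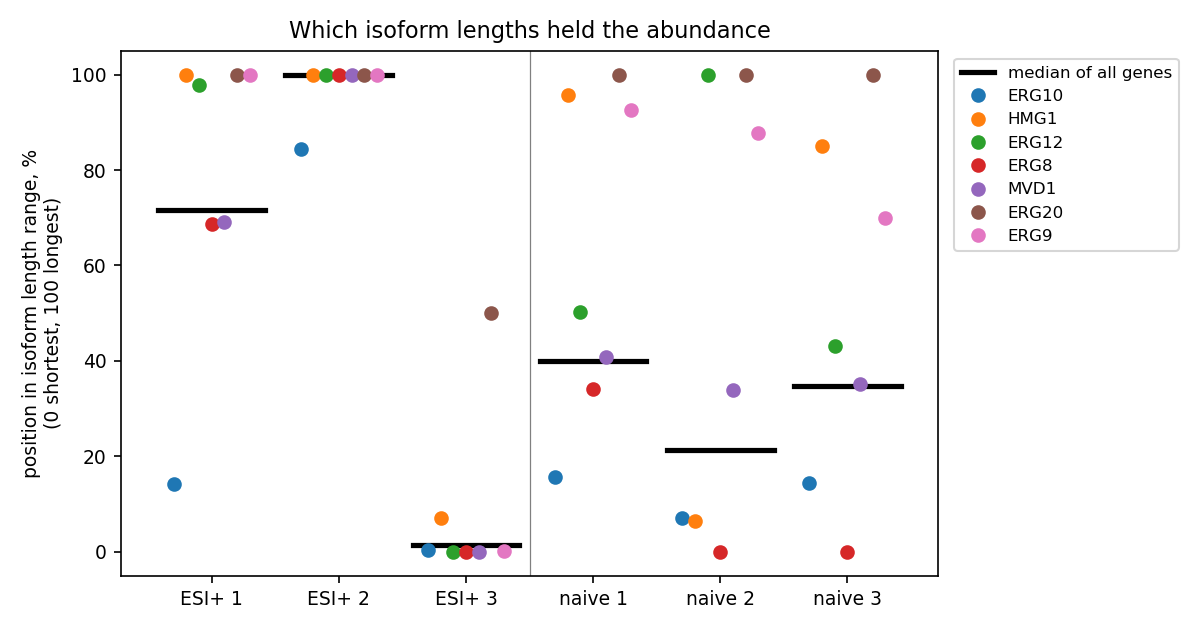
Position of each member's abundance within its range of isoform lengths in percent, from the shortest to the longest in each library, with a black bar for the median of 2120 genes. In ESI+ replicate 2 the 7 members lie at 84.5% or higher, and in ESI+ replicate 3 they lie at 0.0% to 50.1%.

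The genes beyond squalene were read beside the members. Of 15 late sterol genes 13 were listed and tested. Of these edgeR called 3 lower and 0 higher and left 10 uncalled, against 0.985% and 5.27% of all tested genes. The median log2 fold change of the late genes was -0.87, beside -0.043 for the mevalonate members and 0.0724 for all tested genes. Of the 13, 7 were in the most abundant of the 4 equal groups of genes, where the median of all genes was -0.673. At an unadjusted p under 0.05 there were 1 higher and 5 lower, beside 15.2% and 10.2% of all tested genes. DESeq2 called 0 higher and 5 lower, against 8.47% and 5.1% of all genes. Limma on log2(TPM + 1) called 0 higher and 1 lower, against 4.84% and 1.12%. The sterol C-4 methyl oxidase gene ERG25 had 597.6, 91.73 and 252.9 CPM in ESI+ and 1909, 3048 and 4914 in naive libraries, a log2 fold change of -3.39 (SE 0.826, edgeR adjusted p = 0.0198). The groups did not overlap. ERG1, the squalene epoxidase gene that takes the product of Erg9, had 190.0, 133.3 and 172.8 CPM in ESI+ and 817.9, 695.2 and 514.3 in naive libraries, a log2 fold change of -2.03 (SE 0.538, edgeR adjusted p = 0.029). ERG3, the C-5 desaturase gene, had 155.6, 130.5 and 102.7 CPM in ESI+ and 665.3, 381.5 and 253.7 in naive libraries, a log2 fold change of -1.73 (SE 0.502, edgeR adjusted p = 0.0429). NCP1, the reductase that passes electrons to Erg11, had -1.90 (edgeR adjusted p = 0.0625), the lanosterol demethylase gene ERG11 -1.54 (adjusted p = 0.131), the methyltransferase gene ERG6 -0.91 (adjusted p = 0.232) and the lanosterol synthase gene ERG7 1.24 (adjusted p = 0.121). The 3 calls were lost without ESI+ replicate 2, with ERG25 at -2.94, ERG1 at -1.89 and ERG3 at -1.73 (edgeR adjusted p = 0.082, 0.0827 and 0.138), and with both high-URA3 libraries left out (edgeR adjusted p = 0.135, 0.0951 and 0.105). Without naive replicate 3 ERG25, ERG1 and ERG3 also missed the threshold (edgeR adjusted p = 0.0843, 0.0841 and 0.0739), without naive replicate 1 or 2 ERG1 and ERG3 did, and without ESI+ replicate 1 or 3 ERG3 did. Whether the mevalonate and late genes differ from each other was not tested, and both sets share the same libraries.

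**Figure D5:**
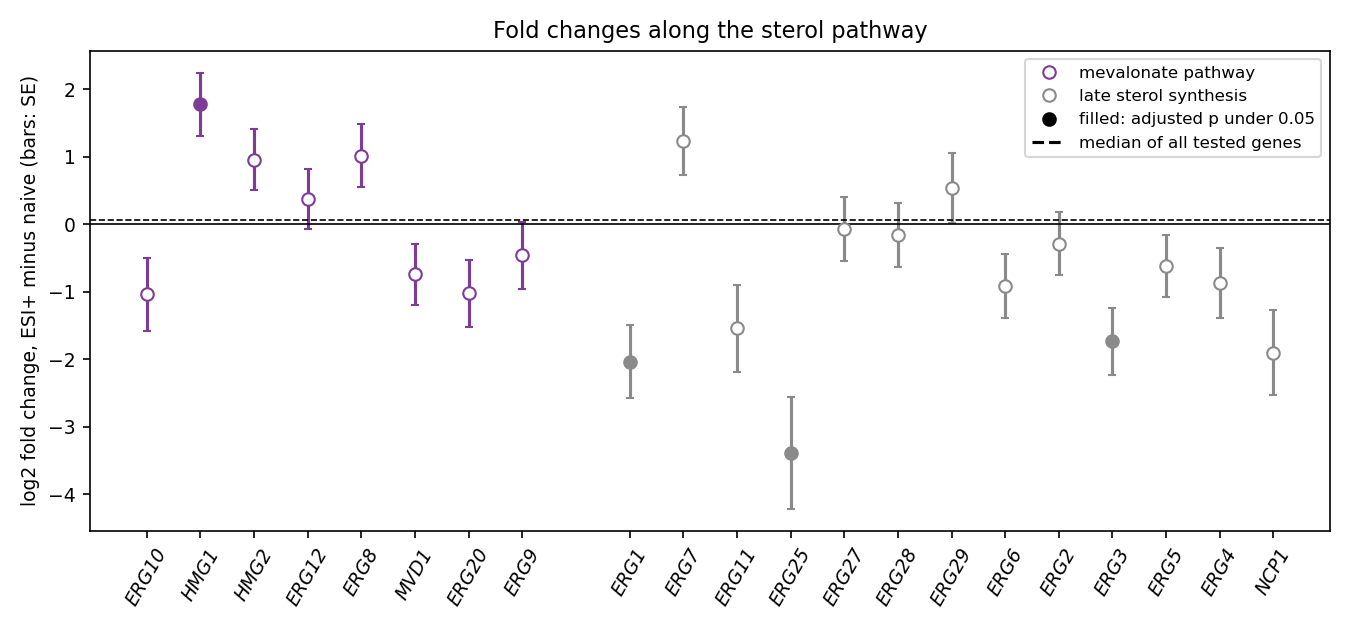
Log2 fold change of ESI+ minus naive with its SE for the 8 mevalonate members (purple) and 13 late sterol genes (grey), filled where the edgeR adjusted p was under 0.05. The dashed line is the median of all tested genes, 0.0724. HMG1 is the filled member, at 1.78, and ERG25, ERG1 and ERG3 are the filled late genes, at -3.39 to -1.73.

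Of 6 named regulators of sterol genes 2 were listed, ROX1 and SUT1, while UPC2 and ECM22 were not analysed here. SUT1, a factor that promotes sterol uptake, had 19.92, 97.42 and 65.1 CPM in ESI+ and 11.06, 10.86 and 13.73 in naive libraries. The groups did not overlap, and the log2 fold change of 2.34 (SE 0.681, edgeR adjusted p = 0.0433) passed. Without ESI+ replicate 2 it was 1.73 (edgeR adjusted p = 0.186). Without naive replicates 1, 2 and 3 the edgeR adjusted p was 0.117, 0.118 and 0.118. The call held in 9 of 18 alternatives. SUT1 was not tested with background subtraction or with the filter of 50 counts in 3 libraries. The length-proportional background came to 105.0%, 48.1% and 9.23% of the SUT1 counts in ESI+ replicates 1 to 3 and to 128.0%, 108.0% and 104.0% in naive replicates 1 to 3. The heme-dependent repressor gene ROX1 had 34.46, 59.7 and 100.2 CPM in ESI+ and 24.1, 27.15 and 190.9 in naive libraries, which overlapped (log2 fold change -0.38, SE 0.652, edgeR adjusted p = 0.748).

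Genes linked to the turnover of HMG-CoA reductase, NSG2 among them, were also read. Of 11 such genes 7 were tested, with 0 higher and 0 lower by edgeR, DESeq2 or limma on log2(TPM + 1). Over all tested genes edgeR called 5.27% higher and 0.985% lower, DESeq2 8.47% and 5.1%, and limma 4.84% and 1.12%. At an unadjusted p under 0.05 in edgeR 0 were higher and 1 lower, against 15.2% and 10.2% of all tested genes. The log2 fold changes of the 7 ran from -1.17 to -0.0193, with a median of -0.277. UBC6, a membrane-bound ubiquitin-conjugating enzyme gene, had 48.45, 80.35 and 20.03 CPM in ESI+ and 112.0, 104.5 and 132.9 in naive libraries (log2 fold change -1.17, edgeR adjusted p = 0.149). CDC48, the segregase gene, had -0.81 (edgeR adjusted p = 0.405), CUE1, which anchors Ubc7, -0.39 (adjusted p = 0.635) and UBC7 itself -0.28 (adjusted p = 0.732).

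The profile of the members' mean over the 6 libraries was nearly flat, since members with higher and with lower ESI+ values were averaged. Of 2787 other genes with a mean of at least 20 CPM, the 5 nearest to it were VPS45, MRPL28, MBA1, GAA1 and KXD1, at root mean square distances of 0.0834 to 0.104 in log2 CPM. Single members lay farther from that mean, from 0.272 for ERG12 to 0.902 for ERG10. For each of the 8 members some gene outside the pathway was nearer than any other member, with ranks of 7 (MVD1, nearest member ERG9) to 429 (ERG10, nearest member ERG20) among 2794 genes.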

How the data were processed

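The authors' transcript quantification used kallisto 0.43.1 and build R64, per the submitters' processing notes. The deposited estimated counts are fragments assigned per isoform, and the deposited TPM values are scaled for length within each library, per the file headers. No source used here states kallisto's options or where the isoforms came from. Both were added up per gene, the estimated counts then being rounded to whole numbers. Of 2850 listed genes 2849 matched the RefSeq annotation. edgeR 4.0.16 (R 4.3.3) compared ESI+ with naive libraries by its quasi-likelihood test, after filterByExpr (minimum count 10) and TMM scaling. Its p-values were adjusted by Benjamini-Hochberg over the 2844 genes tested, and calls needed an adjusted p under 0.05. DESeq2 1.42.0, limma 3.58.1 (log2 of TPM with a pseudocount of 1 or 0.1), another filter, other scalings, background subtraction and left-out libraries were alternatives. Background was the 5th percentile of counts per kb. Log2 CPM profiles used a pseudocount of 0.5 and the HMG1 to HMG2 ratio one of 0.1. Depth limits ESI+ replicate 3 most, where 78 listed genes had 0 counts. The code was tested on simulated data. The members and lists were chosen with earlier results of these data known. Named genes were the listed members and, from each other list, the called genes and up to 4 more with the smallest p, plus the 5 genes nearest in pattern.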

Additional observations from a re-analysis of the deposited data

How the results depend on the processing

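The call of HMG1 held in 11 of 20 alternatives, with log2 fold changes of 1.13 to 3.01. It was lost with limma on log2(TPM + 1) and log2(TPM + 0.1) (2.37 and 2.43, adjusted p = 0.0916 and 0.105), with background subtraction, with the replicate block, with ESI+ replicate 1 alone and without ESI+ replicate 2 or any 1 naive library, so that the members called higher numbered 0 there; lower calls numbered 0 throughout. Leaving out single libraries gave 0 to 1 members called higher. Limma on log2(TPM + 1) and log2(TPM + 0.1) shifted the median of all genes to 0.64 and 0.65 and that of the members to 0.766 and 0.774; relative to this shift MVD1 (0.0162 and 0.015) and ERG9 (0.368 and 0.37) stayed lower while their sign reversed. The members' median was 0.194 with library quality weights, 0.2 with background subtraction and -0.225 to 0.291 with single libraries left out. Genes called higher and lower numbered 150 and 28 in the comparison as reported. They numbered 241 and 145 with DESeq2, 178 and 47 with robust dispersion (chosen after seeing the data), 0 and 0 with background subtraction (533 genes at an unadjusted p under 0.05) and 0 and 0 with ESI+ replicate 1 alone (345 genes), where the lone library is assumed to vary like the naive ones, so that lost calls there say little. Limma on log2(TPM + 0.1) called 96 higher, quality weights called 127 lower, and leaving out both high-URA3 libraries, also chosen after seeing the data, left 6 lower. Without single libraries the counts were 1 to 327 higher and 0 to 85 lower. Late sterol genes called lower, 3 as reported, numbered 5 with DESeq2 and with quality weights, 1 with either limma fit on TPM, and 0 with background subtraction, with ESI+ replicate 1 alone or with both high-URA3 libraries left out. Without single libraries they numbered 0 to 3, and 0 to 1 were called higher. With the replicate number as a block edgeR called 68 genes higher, 0 members higher and 1 late sterol gene lower, and HMG1 had 1.63 (adjusted p = 0.0511). Same-numbered libraries had correlations of deviations of -0.0635, -0.209 and -0.0411, beside -0.0901 to 0.174 for libraries of different number. The labels state no pairing. These correlations do not settle whether the numbers pair the samples, since depth and background also differed between libraries. The HMG1 to HMG2 difference kept its sign in 8 of 8 alternatives (0.631 to 0.89). The cause of these changes was not tested.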

Other observations

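Genes on either side of the pathway were read as well. Of 5 genes that supply acetyl-CoA, 3 were tested, with 0 called by edgeR, DESeq2 or limma on log2(TPM + 1). Over all tested genes edgeR called 5.27% higher and 0.985% lower, DESeq2 8.47% and 5.1%, and limma 4.84% and 1.12%. At an unadjusted p under 0.05 in edgeR 1 of the 3 was lower, where 10.2% of all tested genes were lower. ACS2, the acetyl-CoA synthetase gene used on glucose, had 212.1, 80.35 and 167.8 CPM in ESI+ and 317.5, 321.8 and 489.7 in naive libraries, with no overlap (-1.30 on the log2 scale, SE 0.492, edgeR adjusted p = 0.0975). The cytosolic aldehyde dehydrogenase gene ALD6 had 180.4, 147.7 and 185.3 CPM in ESI+ and 129.6, 101.8 and 139.7 in naive libraries (0.46, edgeR adjusted p = 0.523), and the mitochondrial ALD4 had 0.44 (adjusted p = 0.66).

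Of 14 genes that use isoprenoid products for purposes other than sterols, 6 were tested. Of these 0 were called by edgeR, DESeq2 or limma on log2(TPM + 1). Over all tested genes edgeR called 5.27% higher and 0.985% lower, DESeq2 8.47% and 5.1%, and limma 4.84% and 1.12%. At an unadjusted p under 0.05 in edgeR there were 0 of the 6, against 15.2% higher and 10.2% lower over all tested genes. The median log2 fold change of the 6 was 0.217. CDC43, a subunit of the enzyme that adds geranylgeranyl groups to small GTPases, had 68.91, 130.0 and 77.62 CPM in ESI+ and 53.3, 44.8 and 56.88 in naive libraries, with no overlap (0.84, edgeR adjusted p = 0.29). BTS1, MOD5 and COQ1 had log2 fold changes of 0.40, 0.31 and 0.13 (edgeR adjusted p = 0.756, 0.772 and 0.878).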
